A study of Mus musculus with 4 samples.

Results

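The genes described here are 45 protein-coding genes of ribosome biogenesis and the nucleolus. They come from a list of nucleolar, ribosomal RNA processing and RNA polymerase I genes with Myc added. This list was chosen with earlier results of these data known. Genes missing from the 16383 of the count table were left out of the list, so presence in the table was fixed beforehand. All 45 passed the filter on low counts, with at least 68 counts in every library. RNA-seq was done on cardiac fibroblasts of wild-type mice aged 3 months, cultured as primary cells. In every group the cells carried MGT, that is Mef2c, Gata4 and Tbx5, a set of transcription factors that drives fibroblasts toward induced cardiomyocytes, and were collected on day 7. The shNr4a3 group (2 libraries) received in addition a short hairpin against the nuclear receptor gene Nr4a3, and the shNT group (2 libraries) received a non-targeting hairpin. The study's stated aim was to find the molecular basis on which knockdown of Nr4a3 enhances reprogramming. The labels name no separate cultures or animals behind the 2 libraries of a group, so p-values measure only the spread between these libraries, which may be technical.

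Ribosomes are built mainly in the nucleolus. RNA polymerase I (Pol I) transcribes a long precursor ribosomal RNA, small nucleolar ribonucleoproteins (snoRNPs) guide its chemical modification, and separate sets of processing and assembly factors carve out the small and the large subunit. Myc, a transcription factor that binds DNA as a dimer with Max, is known as an activator of many of these genes, and their mRNA levels are known to follow cell growth and proliferation. RNA from a whole culture was measured, so fewer cells of a type and less RNA per cell cannot be told apart.

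Column totals were 30395159 and 30976450 counts in shNr4a3 and 28220440 and 30479301 in shNT. The table analysed covers 16 chromosomes, so these totals are not sequencing depth. Levels are counts per 1000000 (CPM) after TMM scaling, where 1 count is worth 0.0326 to 0.035 CPM. The hairpin's target Nr4a3 had 0.596 and 1.04 CPM in shNr4a3, against 12.5 and 11.5 CPM in shNT, with a log2 fold change of -3.86 (edgeR standard error 0.267, adjusted p = 2.65e-06). Of the 10 fibroblast markers, 9 were in the table, and their summed level was 7995 and 7341 CPM in shNr4a3 against 11210 and 11160 CPM in shNT. Among them 6 fell, 1 rose and 2 did not pass. Over all genes tested, 29.4% fell and 30.7% rose. Of the 18 proliferation markers, 14 were in the table, of which 13 fell and 0 rose. Their summed level was 359.7 and 329.2 CPM in shNr4a3 and 707.6 and 732.8 CPM in shNT. The 11 macrophage markers in the table, of which 6 fell and 0 rose, summed to 162.8 and 158.2 CPM in shNr4a3 against 231.9 and 181.4 CPM in shNT. Without Lyz2, which did not pass, the macrophage sums were 25.8 and 25.96 CPM in shNr4a3 and 62.44 and 47.64 CPM in shNT. Cardiomyocyte markers (9 in the table, 6 higher and 2 lower) summed to 8731 and 7752 CPM in shNr4a3 against 15600 and 13380 CPM in shNT. Tnnt2 set that direction, and the other 8 summed to 493.6 and 631.0 CPM in shNr4a3 against 288.9 and 272.2 CPM in shNT. Endothelial markers (8 in the table, 2 higher and 3 lower, median log2 fold change 0.29) summed to 231.2 and 220.9 CPM in shNr4a3 against 318.4 and 352.2 CPM in shNT. Without Eng their sums were 106.2 and 112.5 CPM in shNr4a3 and 108.6 and 125.0 CPM in shNT. Mural markers (4 in the table, 3 higher and 1 lower) summed to 1342 and 1284 CPM in shNr4a3 against 417.3 and 366.5 CPM in shNT. Without Des the mural sums were 159.3 and 170.4 CPM in shNr4a3 and 175.0 and 186.1 CPM in shNT. No marker of these lists in the table was at 0 in every library, and the part of proliferation or of other cells in the results below was not tested.

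Ribosome biogenesis genes were mostly lower with the Nr4a3 hairpin, by small amounts. Of the 45 genes, 24 (53.3%) fell, 4 (8.89%) rose and 17 did not pass (edgeR adjusted p under 0.05), where 29.4% of the 10736 genes tested fell and 30.7% rose. The share that passed in either direction, 62.2%, was near the 60.2% of all genes. The median log2 fold change was -0.30 over the 45 genes and 0.02 over all genes tested. In 37 of the 45 the estimate was below 0. The interquartile range ran from -0.56 to -0.08 on the log2 scale, against -0.57 to 0.55 for all genes, a narrower range than that of the whole. Falls of more than 0.5 on the log2 scale were seen in 13 of the 45 (28.9%), against 27.3% of all genes. Falls of more than 1 on the log2 scale were seen in 4 of the 45 (8.89%), against 14.8% of all genes. Libraries of shNr4a3 and shNT stood apart in CPM in 39 of 45 genes (86.7%), where the figure for all genes was 81.0%. Without shNT replicate 2, 1 gene passed as higher and 17 as lower, and without shNT replicate 1 the counts were 3 and 18. The 45 genes share libraries and are no replicates of each other.

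**Figure D1:**
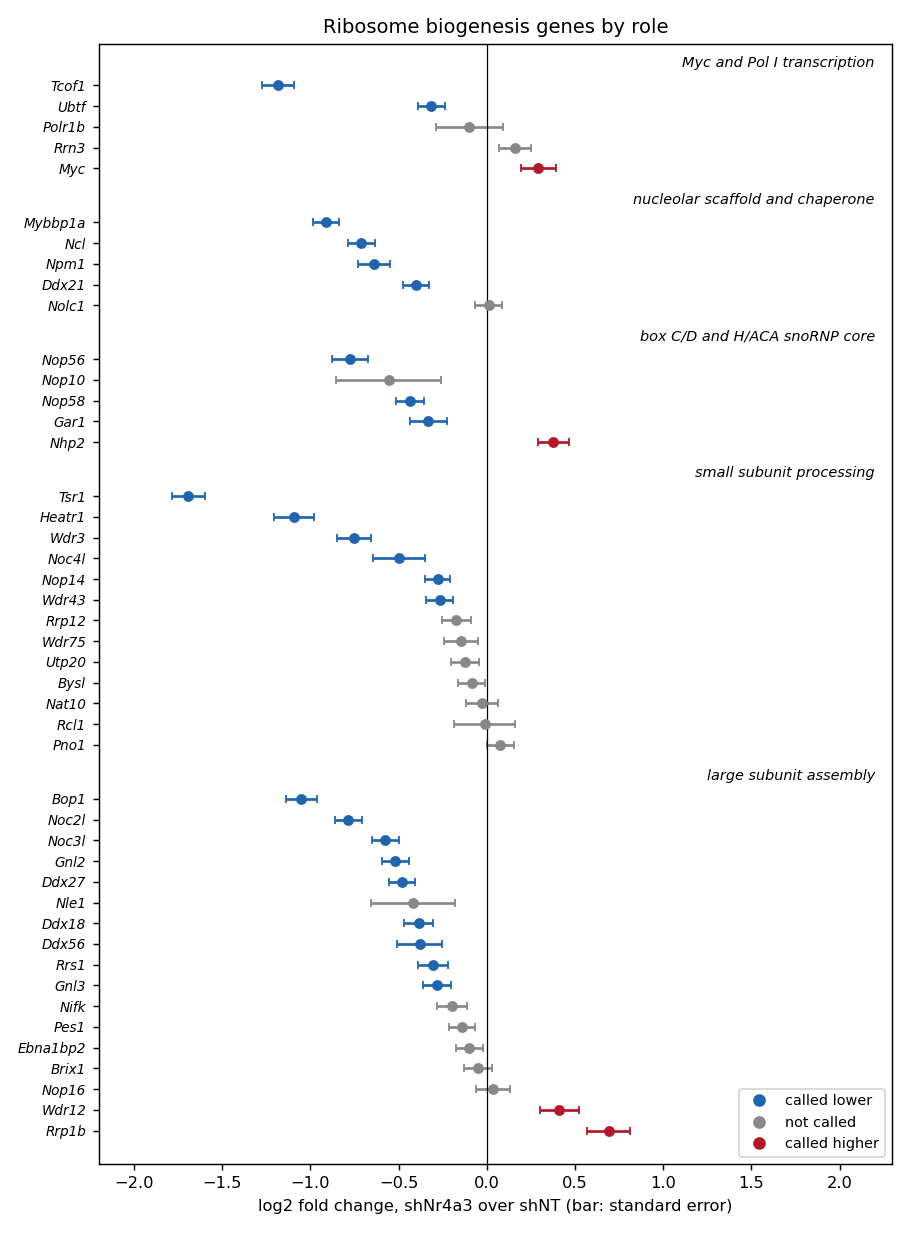
Log2 fold change (shNr4a3 over shNT, x axis) of each of the 45 ribosome biogenesis genes (y axis), grouped by role, with points for the edgeR estimate and bars for its standard error. Blue points passed as lower (24 genes), red points as higher (4 genes) and grey points did not pass (17 genes). The estimates run from -1.69 for Tsr1 to 0.69 for Rrp1b.

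Nucleolin and nucleophosmin, the abundant RNA-binding and histone-binding proteins that organise the nucleolus, carried most of the reads of the group. Ncl, which encodes nucleolin, had 5568 and 5096 CPM in shNr4a3, against 8836 and 8613 CPM in shNT. Both shNr4a3 libraries lay below both shNT libraries, with a log2 fold change of -0.71 (edgeR standard error 0.0786, adjusted p = 5.29e-05). Npm1, which encodes nucleophosmin, had 1184 and 1008 CPM in shNr4a3 and 1749 and 1671 CPM in shNT, again with no overlap (log2 fold change -0.64, edgeR adjusted p = 0.000263). Ncl alone made up 46.2% and 45.3% of the counts of the 45 genes in shNr4a3 and 51.2% in each shNT library. The summed level of all 45 was 12040 and 11240 CPM in shNr4a3 against 17270 and 16830 CPM in shNT. Without Ncl and Npm1 the sums were 5289 and 5136 CPM in shNr4a3 against 6686 and 6545 CPM in shNT, so the groups stayed apart without the abundant pair. The count ratio of Ncl to Npm1 was 4.70 and 5.05 in shNr4a3 and 5.05 and 5.15 in shNT.

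The other nucleolar scaffold and chaperone genes did not all move alike. Mybbp1a, a Myb-binding nucleolar protein that takes part in Pol I control and ribosomal RNA processing, had 187.6 and 190.2 CPM in shNr4a3, against 350.6 and 359.6 CPM in shNT. Its log2 fold change of -0.91 (edgeR standard error 0.0734, adjusted p = 6.75e-06) was the largest fall of this group of 5. Ddx21, an RNA helicase of the nucleolus, had 435.0 and 466.3 CPM in shNr4a3 and 595.3 and 594.9 CPM in shNT (log2 fold change -0.40, edgeR adjusted p = 0.00142). Nolc1, the snoRNP chaperone Nopp140, had 453.5 and 422.2 CPM in shNr4a3 and 446.4 and 422.6 CPM in shNT. The groups of Nolc1 overlapped and it did not pass, with a log2 fold change of 0.01 (edgeR adjusted p = 0.909). In this group 4 of 5 genes (80%) thus fell and 0 rose, where 29.4% of all genes fell and 30.7% rose.

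Among Myc and the genes of Pol I transcription, 2 of 5 (40%) fell, 1 (20%) rose and 2 did not pass. The share that passed, 60%, was near the 60.2% of all genes, of which 29.4% fell and 30.7% rose. Tcof1 encodes treacle, a nucleolar scaffold that brings Pol I and its factors to ribosomal DNA and whose loss causes Treacher Collins syndrome in humans. It had 30.6 CPM in each shNr4a3 library, against 70.0 and 69.0 CPM in shNT, with a log2 fold change of -1.18 (edgeR standard error 0.0893, adjusted p = 4.57e-06). Ubtf, the upstream binding factor that marks active ribosomal DNA, had 277.2 and 261.0 CPM in shNr4a3 and 335.4 and 333.7 CPM in shNT (log2 fold change -0.31, edgeR adjusted p = 0.00545). Its call was lost without shNT replicate 1 (adjusted p = 0.0562) and without shNT replicate 2 (adjusted p = 0.0604), at log2 fold changes between -0.35 and -0.28 over all settings tried.

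Myc was higher in shNr4a3, opposite in sign to most of the group. It had 38.1 and 37.0 CPM in shNr4a3, against 29.3 and 32.0 CPM in shNT, with no overlap and a log2 fold change of 0.29 (edgeR standard error 0.0997, adjusted p = 0.0304). The Myc call was lost with DESeq2 (adjusted p = 0.0776) and without shNr4a3 replicate 1 (0.0531), shNT replicate 1 (0.268) or shNT replicate 2 (0.0725), while the log2 fold change stayed between 0.21 and 0.35. Rrn3, the initiation factor TIF-IA that couples Pol I to growth signals, had 70.7 and 73.5 CPM in shNr4a3 and 61.2 and 68.0 CPM in shNT. It did not pass (log2 fold change 0.16, edgeR adjusted p = 0.159). Polr1b, the second largest Pol I subunit, was low, with 7.78 and 10.4 CPM in shNr4a3 and 8.89 and 10.6 CPM in shNT. Its groups overlapped (log2 fold change -0.10, edgeR adjusted p = 0.672).

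**Figure D2:**
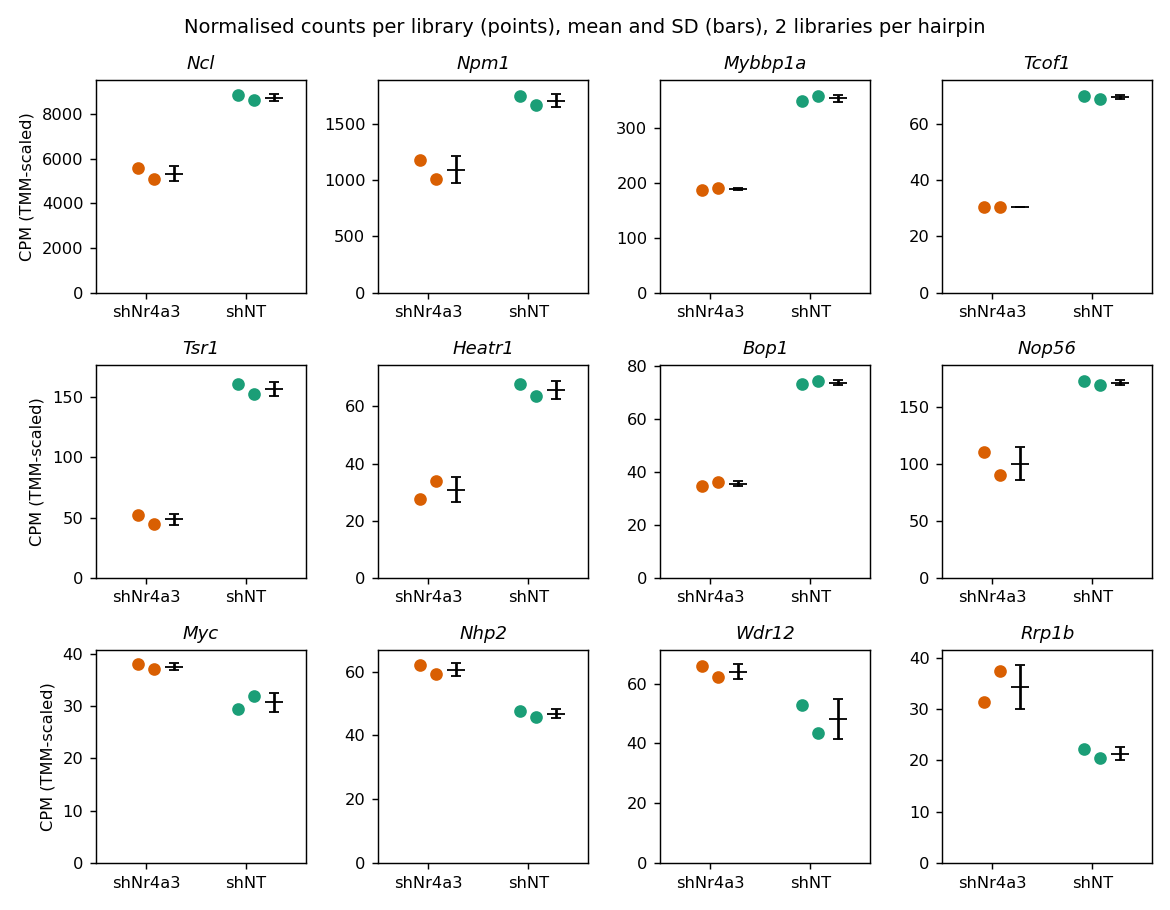
TMM-scaled CPM (y axis, from 0) of 12 ribosome biogenesis genes in each library, with shNr4a3 (orange) left of shNT (green). Points are libraries, and the bars beside them show mean and SD of 2 libraries per hairpin. In the upper 8 panels both shNr4a3 points lie below both shNT points, and in the panels of Myc, Nhp2, Wdr12 and Rrp1b both lie above.

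The core proteins of the snoRNPs moved in both directions, with 3 of 5 (60%) lower, 1 (20%) higher and 1 not passing. Of all genes, 29.4% fell and 30.7% rose. Nop56 and Nop58 are the paired scaffold proteins of box C/D snoRNPs, which place methyl groups on ribosomal RNA. Nop56 had 110.5 and 90.1 CPM in shNr4a3 against 173.4 and 170.0 CPM in shNT (log2 fold change -0.78, edgeR adjusted p = 0.000163). Nop58 had 238.7 and 217.8 CPM in shNr4a3 against 313.4 and 304.6 CPM in shNT (log2 fold change -0.44, edgeR adjusted p = 0.00116). In both genes the groups did not overlap. The count ratio of Nop56 to Nop58, which no scaling can change, was 0.463 and 0.414 in shNr4a3 and 0.553 and 0.558 in shNT. Exons of Nop58 hold stretches of at least 150 bases at 95% identity or more in 28 other annotated genes.

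Gar1, Nhp2 and Nop10 belong to the box H/ACA snoRNPs, which turn uridine into pseudouridine. Nhp2 rose, with 62.1 and 59.2 CPM in shNr4a3 against 47.7 and 45.7 CPM in shNT (log2 fold change 0.38, standard error 0.0892, edgeR adjusted p = 0.00523). The Nhp2 call was lost without shNT replicate 2 (adjusted p = 0.0683). Gar1 fell, with 25.3 and 23.3 CPM in shNr4a3 against 31.5 and 29.6 CPM in shNT (log2 fold change -0.33, edgeR adjusted p = 0.0222). The Gar1 call was lost without either shNT library or shNr4a3 replicate 2, with adjusted p from 0.0588 to 0.119. The count ratio of Gar1 to Nhp2 was 0.407 and 0.394 in shNr4a3 and 0.660 and 0.649 in shNT, and the groups stood apart. Nop10 had 2.25 and 3.52 CPM in shNr4a3 and 3.71 and 4.78 CPM in shNT, and did not pass (log2 fold change -0.56, standard error 0.299, edgeR adjusted p = 0.136).

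Among 13 factors of the small subunit, 6 (46.2%) fell, 0 rose and 7 did not pass. Of all genes, 29.4% fell and 30.7% rose, so the share that passed was below the 60.2% of all genes. Tsr1, a GTPase-like factor of late small subunit maturation, had 51.8 and 44.9 CPM in shNr4a3, against 160.5 and 152.1 CPM in shNT. This was the largest fall among the 45 genes, with a log2 fold change of -1.69 (edgeR standard error 0.0948, adjusted p = 7.71e-07), or a level 0.309 times that of shNT. Heatr1, a scaffold of the small subunit processome that also serves Pol I transcription, had 27.8 and 33.9 CPM in shNr4a3 against 68.0 and 63.6 CPM in shNT (log2 fold change -1.09, edgeR adjusted p = 3.73e-05). Wdr3, another processome protein with WD repeats, had 40.3 and 45.3 CPM in shNr4a3 against 69.4 and 74.8 CPM in shNT (log2 fold change -0.75, edgeR adjusted p = 0.000148). All of these groups stood apart.

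Each of these genes shares exon sequence with a gene on the opposite strand in GENCODE M21. Tsr1 overlaps Srr over 616 bases, Heatr1 overlaps Lgals8 over 155 bases and Wdr3 overlaps Spag17 over 820 bases. The partners also fell, with log2 fold changes of -0.90 for Srr, -0.60 for Lgals8 and -0.79 for Spag17. Wdr3 also overlaps Gdap2, which rose by 0.52, over 27 bases. The libraries were stranded per the labels, but the strand setting of the counting is not given in the sources used here, so a share of reads common to both genes cannot be told apart. Srr and Spag17 had 4008 and 1308 counts over all libraries, fewer than the 12177 of Tsr1 and the 6873 of Wdr3, and Lgals8 had 15679 against 5764 for Heatr1.

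Other small subunit genes changed less. Nop14, a processome core protein and the most abundant of these 13 per exon length, had 574.4 and 554.0 CPM in shNr4a3 and 685.4 and 683.5 CPM in shNT (log2 fold change -0.28, edgeR adjusted p = 0.00847). Wdr43, which belongs with Wdr75 and Heatr1 to the processome part that acts during transcription, fell by 0.27 on the log2 scale, and Noc4l fell by 0.50. The calls of Nop14 and Wdr43 were lost without either shNT library (adjusted p from 0.0828 to 0.123), and that of Noc4l without shNT replicate 2 (0.0806). Wdr75 did not pass (log2 fold change -0.15), and the count ratio of Heatr1 to Wdr75 was 0.684 and 0.918 in shNr4a3 against 1.56 and 1.5 in shNT.

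The highest estimates of this group lay close to 0. Pno1, which helps the final cut at the end of the small subunit RNA, had 105.5 and 105.3 CPM in shNr4a3 and 100.4 and 99.4 CPM in shNT (log2 fold change 0.08, edgeR adjusted p = 0.412). Rcl1, a cyclase-like processome protein, had 11.3 and 9.15 CPM in shNr4a3 and 9.28 and 11.3 CPM in shNT (log2 fold change -0.01). Nat10, the acetyltransferase that modifies cytidines of the small subunit RNA, had 72.7 and 66.7 CPM in shNr4a3 and 73.7 and 68.4 CPM in shNT (log2 fold change -0.03). The groups of Rcl1 and Nat10 overlapped. Utp20, Bysl and Rrp12 also did not pass, with log2 fold changes of -0.12, -0.08 and -0.17. Bysl shares 361 exon bases with Ccnd3 on the opposite strand, and Ccnd3 rose by 2.07 on the log2 scale.

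Of 17 large subunit assembly genes, 9 (52.9%) fell, 2 (11.8%) rose and 6 did not pass. The share that passed, 64.7%, was near the 60.2% of all genes, of which 29.4% fell and 30.7% rose. Bop1, Pes1 and Wdr12 form the PeBoW complex, which is needed to process the RNA of the large subunit, and they moved in different directions. Bop1 had 34.9 and 36.4 CPM in shNr4a3, against 73.2 and 74.4 CPM in shNT (log2 fold change -1.05, standard error 0.0885, edgeR adjusted p = 8.91e-06). Wdr12 had 65.8 and 62.2 CPM in shNr4a3, against 52.8 and 43.5 CPM in shNT (log2 fold change 0.41, standard error 0.11, edgeR adjusted p = 0.00985). Pes1, the most abundant large subunit gene per exon length over all 4 libraries (below Noc2l and Gnl3 in shNT alone), had 271.5 and 268.8 CPM in shNr4a3 and 299.7 and 296.3 CPM in shNT, and did not pass (log2 fold change -0.14, edgeR adjusted p = 0.119).

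Within each library the balance of the PeBoW genes differed between the hairpins. The count ratio of Bop1 to Wdr12 was 0.530 and 0.585 in shNr4a3, against 1.39 and 1.71 in shNT. Per annotated exon length, Bop1 was above Wdr12 in both groups, at 54.9 and 20.4 TPM in shNr4a3 and 114.1 and 15.4 TPM in shNT. That order rests on lengths of 2476 bases for Bop1 and 11955 for Wdr12. The level of Wdr12 is thus understated, and which of the genes had more transcripts cannot be told. The ratio of Bop1 to Pes1 was 0.128 and 0.135 in shNr4a3 and 0.244 and 0.251 in shNT, and that of Wdr12 to Pes1 was 0.243 and 0.231 in shNr4a3 and 0.176 and 0.147 in shNT. In each of these ratios the groups did not overlap, and with 2 libraries a group an exact two-sided permutation test of a single ratio cannot go below p = 0.333. The Wdr12 call was lost without shNT replicate 2 (adjusted p = 0.136). Its exons also hold stretches of at least 150 bases at 95% identity or more in 141 other annotated genes, and Bop1 overlaps Mroh1, which fell by 1.02 on the log2 scale, over 50 bases on the opposite strand.

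**Figure D3:**
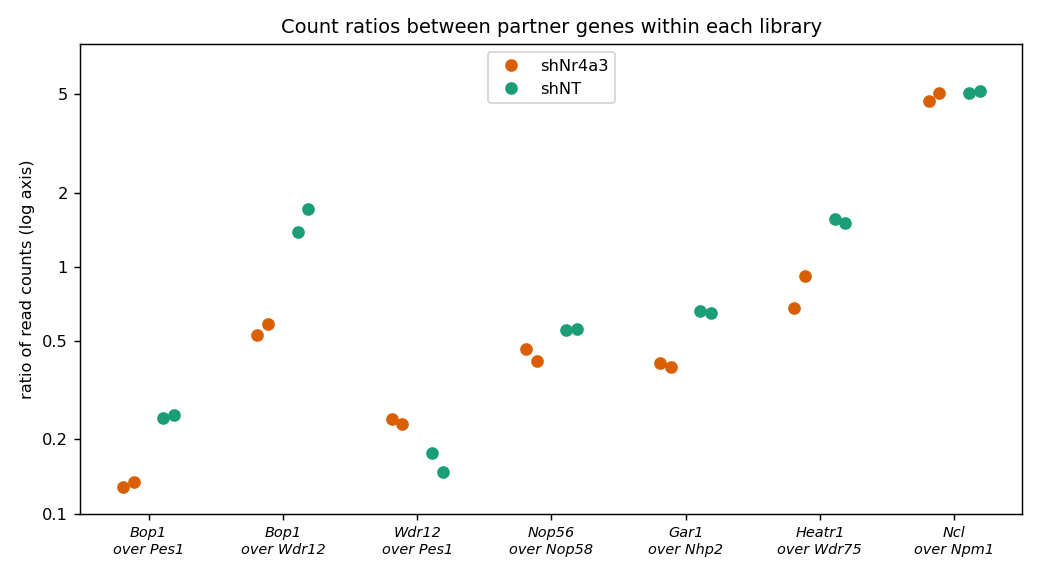
Ratio of read counts (y axis, log scale) between partner genes within each library, with shNr4a3 (orange) left of shNT (green) for each pair on the x axis. Points are single libraries. The groups stand apart in 6 of the 7 pairs and overlap in the ratio of Ncl to Npm1.

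Rrp1b rose most among the 45 genes. This nucleolar protein, which binds large subunit precursors and chromatin, had 31.3 and 37.3 CPM in shNr4a3, against 22.1 and 20.4 CPM in shNT (log2 fold change 0.69, standard error 0.121, edgeR adjusted p = 0.000928). Of the 4 genes that rose, it was the 1 with a call that held in every setting tried where it was tested. Noc2l and Noc3l, partners of the nucleolar complexes that carry large subunit precursors, both fell. Noc2l, also known as a repressor of histone acetylation, had 197.1 and 183.9 CPM in shNr4a3 against 336.3 and 319.9 CPM in shNT (log2 fold change -0.78, edgeR adjusted p = 2.67e-05). It overlaps Samd11 over 598 bases on the opposite strand, and Samd11 fell by 0.67. Noc3l had 103.6 and 99.9 CPM in shNr4a3 against 150.8 and 152.4 CPM in shNT (log2 fold change -0.58, edgeR adjusted p = 0.000165).

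Of the remaining 10 large subunit genes apart from Nop16, 6 fell and 4 did not pass. The helicase genes Ddx27, Ddx18 and Ddx56 fell by 0.48, 0.39 and 0.38 on the log2 scale. The nucleolar GTPase genes Gnl2 and Gnl3, the second of which encodes nucleostemin, fell by 0.52 and 0.28, and Rrs1, which helps place the 5S ribonucleoprotein, by 0.30. The calls of Ddx56, Gnl3 and Rrs1 were lost without at least 1 library (adjusted p up to 0.201, 0.113 and 0.115), and that of Ddx56 with DESeq2 (0.0542). Nop16 had 96.2 and 81.6 CPM in shNr4a3 and 89.4 and 84.2 CPM in shNT, with overlap and a log2 fold change of 0.03. Brix1, Ebna1bp2, Nifk and Nle1 did not pass either, with log2 fold changes of -0.05, -0.10, -0.20 and -0.42. Nle1 had the lowest level per exon length of the 45 genes, and its SE was 0.236.

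Levels per exon length, were computed as TPM (transcripts per 1000000, over the listed genes). Ncl led with a mean of 1994 TPM in shNr4a3 and 3276 TPM in shNT, followed by Npm1 (1566 TPM in shNr4a3, 2454 TPM in shNT) and Nop14 (788.0 TPM in shNr4a3, 959.0 TPM in shNT). Nle1 had 3.99 TPM in shNr4a3 and 5.35 TPM in shNT, and Polr1b 6.0 TPM in shNr4a3 and 6.42 TPM in shNT. Exon lengths are those of all annotated exons, 10188 bases for Ncl and 11955 for Wdr12, so levels of genes with long annotated forms are understated. Near-identical stretches in pseudogenes were found for Npm1, Nop56, Nop58, Ddx18, Ddx21, Pes1 and Wdr12, and reads of these genes may have been lost or shared in counting.

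Other genes of the pathway were also lower more often than higher. Of 150 genes in 5 lists, also chosen with earlier results of these data known, 106 were in the table, and all 106 were tested. Of these, 46 (43.4%) fell, 11 (10.4%) rose and 49 did not pass, where 29.4% of all genes fell and 30.7% rose. The share of the 106 that passed, 53.8%, was below the 60.2% of all genes. The median of the 106 was -0.21 on the log2 scale. Among other large subunit genes 22 of 43 (51.2%) fell and 3 (6.98%) rose. Pwp1, a nucleolar WD-repeat protein, fell by 1.11 on the log2 scale, and Ccdc86, a nucleolar coiled-coil protein, rose by 1.35. Among other small subunit genes 13 of 34 (38.2%) fell and 2 (5.88%) rose. Trmt112, the partner of several methyltransferases that act on ribosomal and transfer RNA, fell by 1.71, and Utp14b, a processome gene, rose by 0.50. Of 12 exosome and trimming genes 5 (41.7%) fell and 2 (16.7%) rose. Xrn2, an exonuclease that trims precursor ends, had a log2 fold change of -0.91. Exosc4, a ring subunit of the exosome, was higher by 0.58. Of 5 other snoRNP genes 2 (40%) fell and 0 rose, and Rpap3, part of the chaperone complex that assembles snoRNPs, fell by 0.50.

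Of 17 listed genes of the Pol I machinery outside the 45, 12 were in the table, and Polr1a was among those missing. The 12 went both ways, with 4 lower, 4 higher and a median log2 fold change of 0.20. The shares of 33.3% lower and 33.3% higher were near those of all genes, 29.4% and 30.7%. Polr1e, a subunit that acts in Pol I initiation, rose by 0.56, Polr2f, a subunit shared by the nuclear polymerases, by 0.49, Twistnb, also named Polr1f, by 0.29 and Taf1b, part of the promoter selectivity factor, by 0.29. The Taf1b call was lost under every alternative except the replicate block, with adjusted p up to 0.218, and the Twistnb call without either shNT library. Polr2h, a shared subunit, fell by 1.16, Taf1a by 0.53, Polr1d, a subunit shared with polymerase III, by 0.48 and Ttf1, the Pol I termination factor, by 0.38. Polr2e, Polr1c, Znrd1 and Polr2k did not pass, with log2 fold changes of -0.18, 0.16, 0.23 and 0.25.

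Of 11 partners, antagonists and relatives of Myc, 5 rose (45.5%, against 30.7% of all genes) and 2 fell (18.2%, against 29.4%), and the calls of 2 that rose, Mxd3 and Mycl, were lost under several alternatives. Max, the dimer partner of Myc and of its antagonists, averaged 185.7 CPM in shNr4a3 and 122.1 CPM in shNT (log2 fold change 0.61, edgeR adjusted p = 0.000159). Mxd4 and Mxi1, which compete with Myc for Max and repress transcription, rose by 0.69 and 0.85, and their relative Mxd3 by 0.52. The Mxd3 call was lost with DESeq2 (adjusted p = 0.0649) and without 3 of the 4 libraries. Mycl had 26 counts over both shNr4a3 libraries and 4 over both shNT libraries, a ratio of 6.31 (exact Clopper-Pearson 95% interval 2.19 to 24.9, counting error only), and its call was lost under 7 of the 11 alternatives. Mycn and Mlx fell by 0.83 and 0.38. Mnt, Mycbp, Mga and Mlxip did not pass, with log2 fold changes of 0.12, 0.33, -0.08 and -0.14.

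Most of the cytosolic ribosomal protein genes tested did not pass. Among 52 cytosolic ribosomal protein genes, 18 (34.6%) were lower, against 29.4% of all genes, 1 (1.92%) was higher, against 30.7%, and 33 did not pass. Their median was -0.19 on the log2 scale. Rps6 fell most, to 273.6 CPM in shNr4a3 against 586.7 CPM in shNT (log2 fold change -1.10), and Rpl23a rose by 0.39. Of 61 mitochondrial ribosomal protein genes, 19 (31.1%) fell and 12 (19.7%) rose, with a median of -0.10, so the share that fell was near the 29.4% of all genes. Both lists were made by symbol pattern from the genes in the table, so genes on chromosomes it lacks are absent. The cytosolic list held 55 genes, among them Rpl7l1, which fell, and Rpl22l1, which did not pass, both related to ribosomal protein genes by name. The difference between these lists and the 45 genes was not tested.

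**Figure D4:**
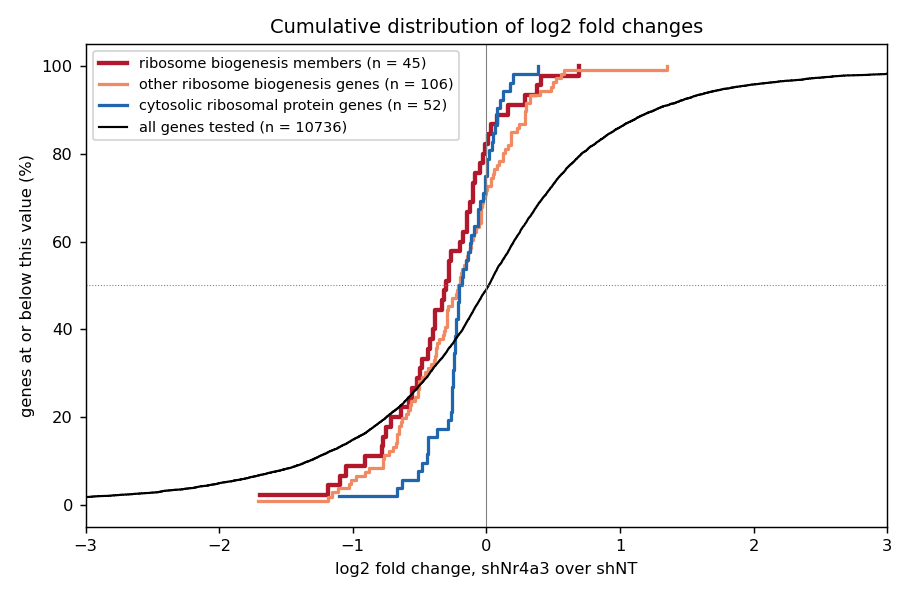
Cumulative share of genes (y axis, percent) at or below each log2 fold change (x axis, shNr4a3 over shNT, shown from -3 to 3) for the 45 ribosome biogenesis genes, 106 other genes of the pathway, 52 cytosolic ribosomal protein genes and all 10736 genes tested. The curves cross 50% at medians of -0.30, -0.21, -0.19 and 0.02, and the 3 gene lists are steeper than the curve of all genes.

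Myc and Max bind the E-box CACGTG, which reads the same on both strands, and promoters were searched for it. RefSeq promoters (GRCm38.p6, 250 bases before to 50 after the start site) were matched for 38 of the 45 genes. Of these, 8 (21.1%) held the motif, against 9.90% of 8014 promoters of genes tested and 7.15% of all 32851. For the 38 and the 8014 only the first promoter listed for each gene was used, while the 32851 hold every promoter listed. Among other genes of the pathway 17 of 84 (20.2%) held it, and among cytosolic ribosomal protein genes 3 of 39 (7.69%). Of the 45, it was found in 3 of 19 promoters of genes that fell (15.8%), in 0 of 3 that rose and in 5 of 16 that did not pass (31.2%). Over all genes tested, the motif was in 11.1% of promoters of genes that fell and 9.11% of those that rose. A match is a description of the letters and not evidence of binding.

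The 3 promoters of falling genes with the motif and that of Rrn3, with 2 motifs, are shown with CACGTG in capitals. They lie on the plus strand at chr11:74897830-74898129 (Tsr1), chr11:72441077-72441376 (Mybbp1a), chr17:71615965-71616264 (Wdr43) and chr16:13780449-13780748 (Rrn3).
Tsr1: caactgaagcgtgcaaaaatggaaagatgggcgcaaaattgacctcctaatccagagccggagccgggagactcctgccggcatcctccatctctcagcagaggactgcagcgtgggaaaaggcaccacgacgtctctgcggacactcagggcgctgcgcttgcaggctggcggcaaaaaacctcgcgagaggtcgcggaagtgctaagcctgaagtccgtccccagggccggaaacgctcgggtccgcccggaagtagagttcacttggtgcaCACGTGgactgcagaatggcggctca
Mybbp1a: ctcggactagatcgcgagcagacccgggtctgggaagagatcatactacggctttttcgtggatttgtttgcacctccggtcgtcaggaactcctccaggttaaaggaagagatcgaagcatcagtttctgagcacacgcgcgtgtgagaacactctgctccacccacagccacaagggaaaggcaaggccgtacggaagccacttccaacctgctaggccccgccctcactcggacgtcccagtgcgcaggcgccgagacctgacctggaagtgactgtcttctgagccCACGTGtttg
Wdr43: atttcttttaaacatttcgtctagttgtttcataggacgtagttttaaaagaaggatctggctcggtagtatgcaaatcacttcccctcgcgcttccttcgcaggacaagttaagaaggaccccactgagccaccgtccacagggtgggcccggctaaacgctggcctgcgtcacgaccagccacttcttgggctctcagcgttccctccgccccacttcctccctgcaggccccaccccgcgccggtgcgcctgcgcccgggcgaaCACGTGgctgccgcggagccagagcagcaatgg
Rrn3: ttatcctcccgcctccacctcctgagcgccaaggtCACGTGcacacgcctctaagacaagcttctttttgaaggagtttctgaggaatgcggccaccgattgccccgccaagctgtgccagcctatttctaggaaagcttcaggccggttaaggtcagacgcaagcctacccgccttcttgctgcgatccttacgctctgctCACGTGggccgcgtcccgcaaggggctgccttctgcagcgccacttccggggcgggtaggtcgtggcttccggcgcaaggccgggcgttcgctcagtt
In Tsr1, Mybbp1a and Wdr43 the motif begins 25, 41 and 18 bases into the transcript, counting the start site as 1, and in Rrn3 at 215 and 48 bases before it. Tsr1 carried the largest fall of the 45 genes and Wdr43 the smallest fall that passed, while Rrn3 did not pass.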

How the data were processed

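Counts were deposited by the authors as raw whole numbers of reads per gene, 1 column per library, with no normalization. Exon lengths in bases, given as another column of the deposited table, were written by the authors' counting step. Per the submitters' processing notes, Trimmomatic 0.36, SAMtools and featureCounts of Subread 1.5.1 were used with build mm10. Not given in the sources used here: aligner, strand setting and annotation release. Per the labels' protocols, ribosomal RNA was depleted and libraries were stranded, although the molecule label reads polyA RNA.

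Coordinate cells of 5390 genes stop at 255 characters, so loci and exon overlaps (bedtools 2.31.1) came from GENCODE M21 (GRCm38), where 98.1% of symbols matched on the same chromosome. Near-identical stretches were sought with blastn 2.17.0. Differential expression used the quasi-likelihood test of edgeR 4.0.16 (R 4.3.3) on all 4 libraries, with TMM, filterByExpr, a single term for the hairpin, and p-values adjusted by Benjamini-Hochberg over all genes tested at 0.05. The standard error (SE) is the log2 fold change divided by the square root of F. The test was checked on simulated counts.

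The 2 libraries of a group differed by more than counting noise (chi-square per degree of freedom 22.1 in shNr4a3 and 10.6 in shNT), so all 4 were kept as separate samples. Alternatives were DESeq2 1.42.0, limma-voom 3.58.1, other scalings, no low-count filter, no overlapping genes, a replicate block and leaving out each library. The genes and lists were chosen with earlier results of these data known. Per-library values are given for Myc, Pol I, scaffold and snoRNP genes, and, in the small and large subunit groups, for the 3 highest and 3 lowest in log2 fold change and the most abundant per length. The exact interval for Mycl was computed from counts pooled over the libraries of each group, so it covers counting error only. Reads also lack molecular identifiers.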

Additional observations from a re-analysis of the deposited data

How the results depend on the processing

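Of the 45 ribosome biogenesis genes, 31 kept their call under every alternative in which they were tested, among them 16 of the 24 lower calls and 1 of the 4 higher calls. For none of the 28 called genes did the estimate change sign. The median log2 fold change of the genes lay between -0.35 and -0.28 when single libraries were left out. The counts of higher calls lay between 1 and 4 and of lower calls between 17 and 25. Calls over all genes lay between 5245 and 6360 in these fits, against 6458, and the lone library of a group is assumed there to vary like the others. Without genes that overlap another gene, 29 of the 45 were tested, of which 1 was higher and 15 were lower. No call among these 29 differed from that of the main fit, so the smaller counts follow from the removal of the other 16 genes. DESeq2 gave 3 higher and 23 lower. Other scalings, limma-voom and no filter on low counts gave 4 higher and 24 lower each, and moved the median of all genes by at most -0.041. The labels do not say that equal replicate numbers mark a shared batch, and the deviations of equally numbered libraries had a correlation of 0.0374 across genes. With the replicate block 4 genes were higher and 24 lower, the median was -0.30, and 6659 of all genes were called. The rarest gene of the 45 had 428 counts over the 4 libraries. Standard errors of the log2 fold change were widest for Nop10 (0.299), Nle1 (0.236) and Polr1b (0.188), which had low counts.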
